A study of Mus musculus with 6 samples.

Results

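E2A bound 1562 regions in the first introns of genes in mouse neural stem cells, and nearly all of them kept a called peak when either E12 or E47 was deleted. A region counted here when a peak of wt replicate 3 overlapped a peak of wt replicate 1 or 2 by at least 1 bp and was annotated to intron 1 of a transcript. These made up 12.7% of the 12298 peaks of wt replicate 3 that were shared in this way, and 51.6% of that library's 3029 first-intron peaks. The regions were chosen on the wt lists and on the intron 1 label. Presence in the wt lists and the place in intron 1 are therefore part of the choice. The knockout lists and the identity of the host genes were not used.

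E2A is the product of Tcf3, a gene of the basic helix-loop-helix class. Splicing of mutually exclusive exons yields the transcription factors E12 and E47, which share most of their sequence and differ in the DNA-binding domain. They pair with tissue-specific partners such as the proneural factors and recognise the E-box, CANNTG. Id proteins lack the DNA-binding part and sequester them, which is known to hold neural progenitors in a dividing state. First introns lie just downstream of the transcription start and are known to be rich in regulatory sequence.

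The series holds chromatin immunoprecipitation sequencing (ChIP-seq) of neural stem cells from C57BL/6J embryos at stage E12.5. The groups were E12KO cells (genotype E12 KO, 1 library), E47KO cells (genotype E47 KO, 1 library) and wt cells (wildtype, 3 libraries), all precipitated with the same anti-E2A antibody. A 6th sample, wildtype input DNA, entered no comparison. EGF and FGF-2, each at 20 ng/ml, kept all cells dividing, and the cells were fixed with EGS and then formaldehyde. How the alleles were made, and how many embryos stand behind a library, is not given in the sources used here, so differences between the wt libraries may be technical. Read totals were not analysed here, and the depth behind a missing peak is therefore unknown. The lists held 25229 peaks for E12KO, 22176 for E47KO, and 6814, 12772 and 24194 for wt replicates 1, 2 and 3. First introns took 2963 peaks in E12KO (11.7%), 2753 in E47KO (12.4%), 1626 in wt replicate 2 (12.7%) and 3029 in wt replicate 3.

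Wt replicate 1 gave only 7.53%, and its labels count introns differently. Where its peaks overlapped a member, 304 of 313 in genes on the plus strand were also labelled intron 1, but only 9 of 340 in genes on the minus strand, where 323 carried a later intron number. In E12KO, E47KO and wt replicate 2, 700 of 712, 694 of 699 and 668 of 669 such minus-strand peaks kept the intron 1 label. The intron number was therefore taken from wt replicate 3, and that of wt replicate 1 was not used. The promoter label of wt replicate 1 also reached farther. A Gse1 peak 1662 bp from a start carried it, whereas members, annotated in wt replicate 3, began at 1008 bp. Only wt replicate 1 carries scores, so every fold enrichment given is that library's ratio of ChIP to the peak caller's background, as the authors deposited it, and the 849 members without a wt replicate 1 peak have none. Positions are those of the wt replicate 3 peak in mm9. Distances run from the near edge of the peak to the nearest annotated start, unless the peak midpoint is named.

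The promoters of 2 hosts with many first-intron regions are shown because the lists place peaks at their starts as well. Sema5b, a semaphorin that repels growing axons, hosted 8 regions, and a peak covered its annotated start in E12KO, E47KO, wt replicate 1 and wt replicate 3. Nfia, a transcription factor that drives the switch from neuron to astrocyte production, hosted 10. The sequences are RefSeq promoter windows on GRCm38.p6, 250 bases before to 50 after a start, with CANNTG in capitals. The window of Sema5b lies on the plus strand at chr16:35541112-35541411 and that of Nfia on the plus strand at chr4:97581693-97581992. 
Sema5b: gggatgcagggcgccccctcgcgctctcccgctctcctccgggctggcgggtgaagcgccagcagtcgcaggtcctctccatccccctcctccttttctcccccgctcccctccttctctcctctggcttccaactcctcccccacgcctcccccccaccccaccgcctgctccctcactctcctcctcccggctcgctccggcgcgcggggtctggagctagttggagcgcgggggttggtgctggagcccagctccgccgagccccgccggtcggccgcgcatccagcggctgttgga
Nfia: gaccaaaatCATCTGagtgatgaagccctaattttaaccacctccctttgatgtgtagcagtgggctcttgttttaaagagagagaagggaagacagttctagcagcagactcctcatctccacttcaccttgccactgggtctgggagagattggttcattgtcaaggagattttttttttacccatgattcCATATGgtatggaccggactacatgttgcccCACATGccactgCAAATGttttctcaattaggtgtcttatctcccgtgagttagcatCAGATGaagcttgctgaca
The Sema5b window holds no CANNTG on either strand (the motif reads as itself on the opposite strand), and the Nfia window holds 5, with neither the form CAGCTG nor, read on either strand, the form CAGGTG. Across all 32851 promoter windows of the table, 72.3% hold at least 1 CANNTG and 689 hold 5 or more, while 32.9% hold at least 1 of these forms. Of the 11 hosts with 6 or more regions, 7 had a window with CANNTG and 4 had one of these forms. The peaks are on mm9 and the windows on GRCm38.p6, so which of the starts of Nfia its window serves was not determined.

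A few regions lie nearest to a microRNA gene, and the mature RNAs of 3 of these are shown as examples. Their regions had peaks in both knockouts, as did most regions nearest to a microRNA gene. Presence in at least 2 wt lists is set by the rule for every member. The sequences are from RefSeq on GRCm38.p6, with the seed, bases 2 to 8, in capitals. 
mmu-miR-9-5p: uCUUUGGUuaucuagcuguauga
mmu-let-7c-5p: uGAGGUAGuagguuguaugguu
mmu-miR-181a-5p: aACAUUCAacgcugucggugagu
The 3 seeds differ from each other. The microRNA miR-9, abundant in neural progenitors, is made from several genes, of which Mir9-3 hosted a region in the first intron of its own primary transcript at chr7:86664729-86665586. That region was 1054 bp wide in E12KO, 821 bp in E47KO, and 316, 549 and 858 bp in wt replicates 1, 2 and 3, with 5.99-fold enrichment.

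Of the 1562 regions, 1514 had an E12KO peak (96.9%, 95% Wilson interval 95.9 to 97.7) and 1473 had an E47KO peak (94.3%, 93.0 to 95.3). Both knockouts had a peak at 1454 (93.1%). E12KO alone lacked 19, E47KO alone lacked 60, and 29 (1.86%, 1.30 to 2.65) were without a peak in either. Over all 12298 shared regions, 3.27% were without an E12KO peak, 6.4% without an E47KO peak and 92.1% had both. E12KO alone lacked 1.48% of them, E47KO alone lacked 4.61% and both lacked 1.79%. The first-intron figures of 48 regions without E12KO and 89 without E47KO are close to those background shares. With 1 library per knockout there is no test between genotypes, and the intervals cover counting error only.

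The shares in other annotation classes were similar, as the plot of knockout peaks by class shows. In later introns 96.4% of 2757 regions had an E12KO peak and 94.1% an E47KO peak, and in intergenic regions the shares were 97.0% and 93.8% of 4384. Promoter regions had 96.6% and 92.4% of 2745. The Wilson interval of first introns for E47KO, 93.0 to 95.3, overlapped that of promoters, 91.3 to 93.3, and those of later introns and intergenic regions. The E47KO list is the shorter of the knockout lists, and the part of its length in the lower share was not tested.

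**Figure D1:**
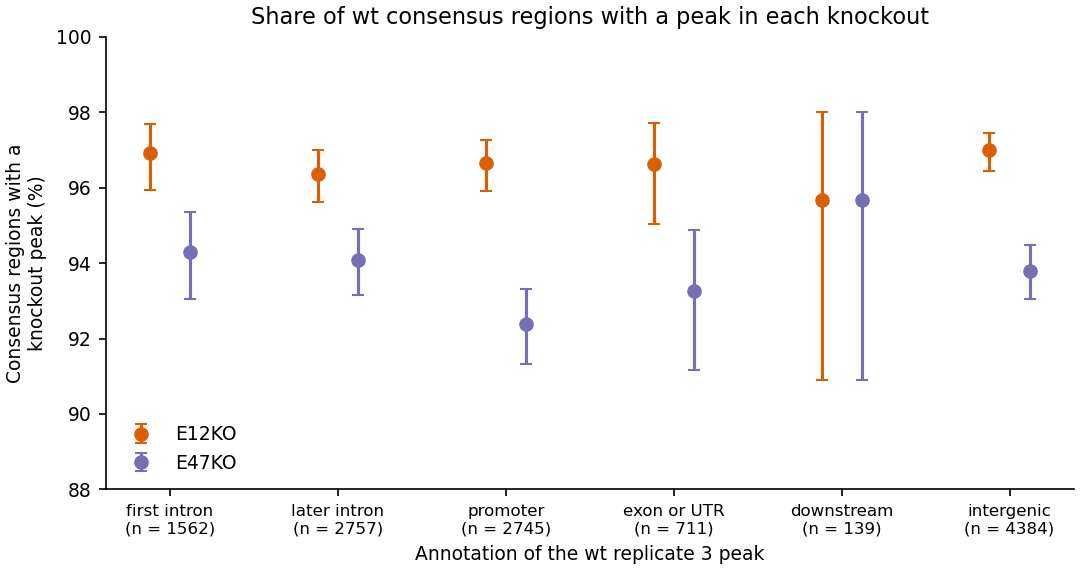
Share of wt consensus regions with a peak in E12KO and in E47KO (vertical axis, percent, starting at 88) by annotation class (horizontal axis), with 95% Wilson intervals as bars. First introns sit at 96.9% for E12KO and 94.3% for E47KO, within the intervals of later introns and intergenic regions.

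A comparison with a held-out wt list puts the knockouts beside the spread between wt libraries. Of the 713 regions in wt replicates 3 and 1, E12KO had a peak at 96.5%, E47KO at 93.5% and the held-out wt replicate 2 at 78.8% (75.7 to 81.7). Of the 1411 in wt replicates 3 and 2, the shares were 98.2% in E12KO, 96.6% in E47KO and 39.8% in wt replicate 1. When first-intron peaks of wt replicate 2 that overlapped wt replicate 1 were taken instead, 590 in number, E12KO had 99.3%, E47KO 98.8% and wt replicate 3 99.3%. Each knockout list thus held a larger share than wt replicate 2 or wt replicate 1 when these were held out, while E12KO, E47KO and wt replicate 3 had overlapping intervals. No list held a larger share than a longer list did, and the part of list length in these shares was not tested.

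Regions without an E47KO peak, or without either knockout peak, made up a larger share where wt replicate 2 had no peak either. Among the 562 regions in all 3 wt lists (36.0%, against 34.4% of all shared regions), E12KO lacked 3 and E47KO lacked 5, and no region was without both, which allows a share of up to 0.534%. Among the 849 in wt replicates 2 and 3 only, E12KO alone lacked 14, E47KO alone 34 and both 9. Among the 151 in wt replicates 1 and 3 but absent from wt replicate 2, E12KO alone lacked 2, E47KO alone 21 and both 20. Those 20 make 13.2% of that group, which holds 20 of the 29 regions without a knockout peak. The same group over all annotation classes, 1266 regions, was without both knockouts at 10.3%.

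**Figure D2:**
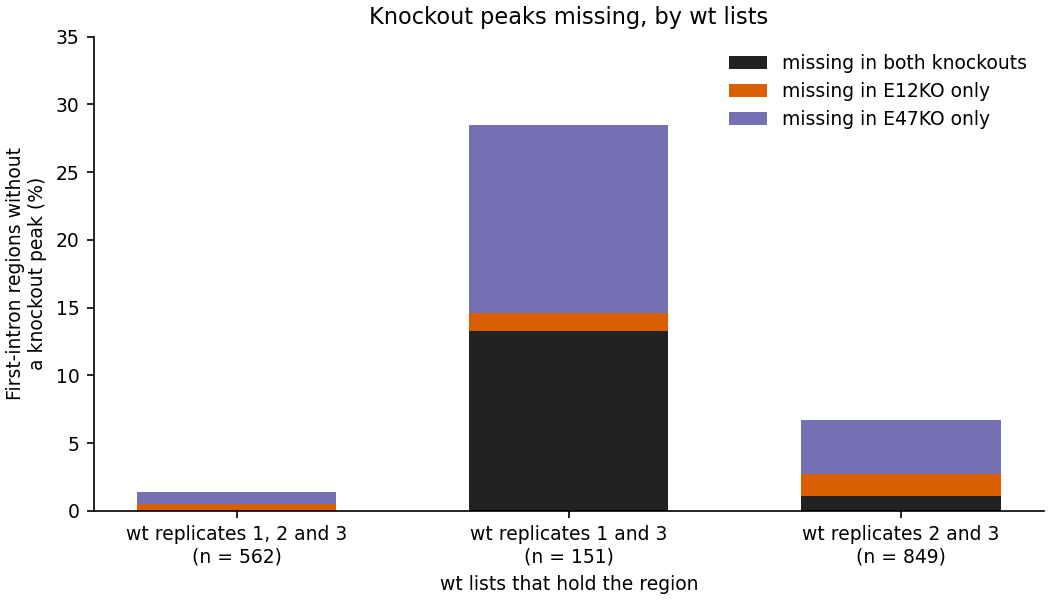
Percent of first-intron regions without a knockout peak (vertical axis) by the wt lists that hold the region (horizontal axis), as stacked bars of regions lacking both, E12KO only or E47KO only. The group absent from wt replicate 2 stands highest, with 13.2% lacking both, against 0% where all 3 wt lists have the region.

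The missing regions were also narrow. Median width in wt replicate 3 was 373 bp for the 29 lacking both knockouts, 460 bp for the 19 lacking E12KO only and 430.5 bp for the 60 lacking E47KO only, against 673 bp for the 1454 with both. Median fold enrichment was 7.05 for the 20 lacking both that had a score, 10.3 for 5 lacking E12KO only and 6.44 for 26 lacking E47KO only, against 8.11 for 662 with both. The ranges overlap widely, as the plot of fold by knockout status shows. The nearest E12KO peak lay within 10 kb of 24 of the 48 regions without one (50%). The nearest E47KO peak lay within 10 kb of 52 of the 89 (58.4%). For regions without a wt replicate 2 peak the number was 63 of 151 (41.7%), and for wt replicate 1 it was 176 of 849 (20.7%). Within 1 kb the numbers were 6 for E12KO, 6 for E47KO, 7 for wt replicate 2 and 16 for wt replicate 1. The lists differ in length, so these shares are a description only.

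**Figure D3:**
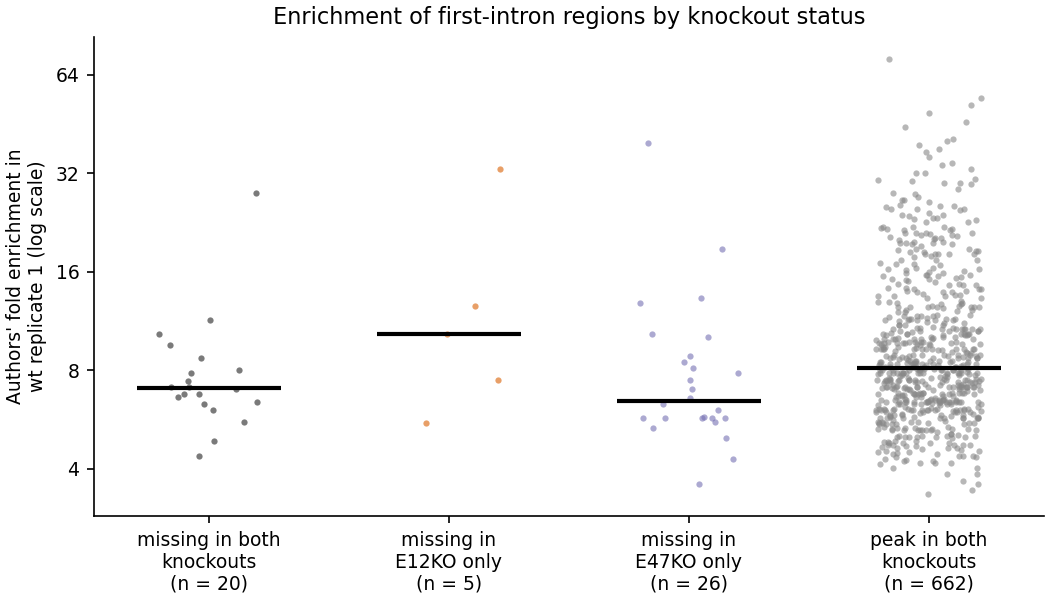
Fold enrichment of the overlapped wt replicate 1 peak (vertical axis, log scale) for first-intron regions by knockout status (horizontal axis), each point 1 region and each line a median. Regions lacking both knockouts have a median of 7.05 and reach 27.9, inside the range of 3.33 to 71.9 of regions with both.

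Ranking the 713 scored regions by −log10 q in 5 bins of 142 or 143 gave a similar picture. From the strongest bin to the weakest, E12KO had 98.6, 96.5, 97.9, 91.6 and 97.9%, and E47KO had 97.9, 93.7, 96.5, 90.2 and 89.4%. Wt replicate 2, which had no part in choosing these, had 93.7, 86.0, 82.4, 63.6 and 68.3%. E47KO coverage was lower in the weakest bins, where wt replicate 2 was lower still.

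The 10 first-intron regions highest by −log10 q all kept a peak in both knockouts. This does not hold by fold, where a 39.5-fold region of Gcnt2, given below, lacked E47KO. The 10 ran from 38.0-fold to 71.9-fold, against a median of 8.04 over all scored first-intron regions, which is also the median of later introns. At the top, at 71.9-fold, stood chr10:66481282-66482241, in a transcript without a gene number 76632 bp upstream of Jmjd1c, which encodes a protein of the histone demethylase family. It was 970 bp wide in E12KO, 1007 bp in E47KO, and 949, 844 and 960 bp in wt replicates 1, 2 and 3, so all 5 libraries called a peak of similar width.

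Slc35f1, a solute carrier gene expressed in brain, carried a 54.2-fold region 52057 bp into the gene at chr10:52462364-52463128. Its widths were 871 bp in E12KO, 708 bp in E47KO, and 607, 514 and 765 bp in wt replicates 1, 2 and 3. Spen, a corepressor that joins the Notch effector RBPJ, carried a 51.8-fold region 2486 bp from its start at chr4:141090918-141092026. It was 624 bp wide in E12KO, 756 bp in E47KO, and 1023 and 1109 bp in wt replicates 1 and 3. Spen is the only one of the 10 absent from wt replicate 2, whose nearest peak lay 730 bp away.

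Further members of the top 10 were Cracr2a (49.1-fold), a calcium sensor of store-operated channels, Amer3 (46.1-fold), which binds the Wnt pathway protein APC, and Tspan14 (44.4-fold), a tetraspanin that escorts the Notch-cleaving protease ADAM10. Cdk2ap1 (40.9-fold), a partner of the cell cycle kinase CDK2, Mapkapk2 (40.2-fold), a kinase downstream of p38, and Mmd2 (38.0-fold), a membrane protein of the progestin and adipoQ receptor family, were also among them. Each of these 6 had a peak in all 5 libraries.

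Of the regions in all 3 wt lists, 3 lacked an E12KO peak. Sgk1, a kinase induced by serum and glucocorticoid, had the strongest at 12.6-fold, chr10:21643283-21643742. It was 344 bp wide in E47KO and 482, 256 and 460 bp in wt replicates 1, 2 and 3, and the nearest E12KO peak was 69751 bp away. Ndp encodes norrin, a ligand of the Wnt receptor Frizzled-4. Its 7.48-fold region had an E12KO peak only 804 bp away, whereas the 5.51-fold region of Sema5b, chr16:35581383-35581724, had none within 6098 bp. None of the 3 was wider than 491 bp in any library that called it.

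The 5 such regions lacking an E47KO peak were in Parvb (13.3-fold), a link between integrins and actin, Frmd4a (8.47-fold), a scaffold of epithelial polarity, Scarb2 (6.56-fold), a lysosomal membrane protein, Vsir (5.71-fold), an immune checkpoint receptor, and Akna (3.60-fold), a centrosomal protein of neural stem cells. The Parvb region was 492 bp wide in E12KO and 464, 343 and 344 bp in wt replicates 1, 2 and 3, with the nearest E47KO peak 9576 bp away. The Vsir region was the widest of the 5, with 1037 bp in E12KO and 762, 638 and 880 bp in wt replicates 1, 2 and 3. The nearest E47KO peaks to the other regions lay 2090 bp from that of Scarb2, 2671 bp from Akna and 5842 bp from Frmd4a. Across both sets fold ran from 3.60 to 13.3, on either side of the median of 8.04 over all scored first-intron regions.

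Stronger missing regions occurred where wt replicate 2 had no peak either. These were picked after their values were seen. Gcnt2, the enzyme that branches the I blood group antigen, had a 39.5-fold region at chr13:41027135-41027599 that lacked E47KO and was 295 bp wide in E12KO, 615 bp in wt replicate 1 and 465 bp in wt replicate 3. Thra, the thyroid hormone receptor alpha gene, had the strongest region without either knockout, 27.9-fold at chr11:98608840-98609390, 651 bp wide in wt replicate 1 and 551 bp in wt replicate 3. An E12KO peak lay 852 bp from it and an E47KO peak 1759 bp from it. High scores in wt replicate 1 thus occurred at regions that up to 3 other libraries did not call.

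First-intron regions lay closer to a start than later-intron ones. The intron labels that define both classes favour this order, so it is a description only. Of the first-intron regions, 108 lay at 1 to 2 kb, 211 at 2 to 5 kb, 245 at 5 to 10 kb and 283 at 10 to 20 kb. Clustering at the start itself cannot be read from them, because the nearest peaks are labelled promoter. The median distance was 16781.5 bp (quartiles 6040 and 41671), against 37985 bp in later introns, and 564 regions (36.1%) lay within 10 kb. Peaks nearer than 1008 bp do not occur, because the annotation calls them promoter, so the lower end is set by the labels. Where the host's own start is known, for 1366 regions, the median from it to the peak midpoint was 22858 bp, and 118 midpoints lay more than 100 kb away.

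**Figure D4:**
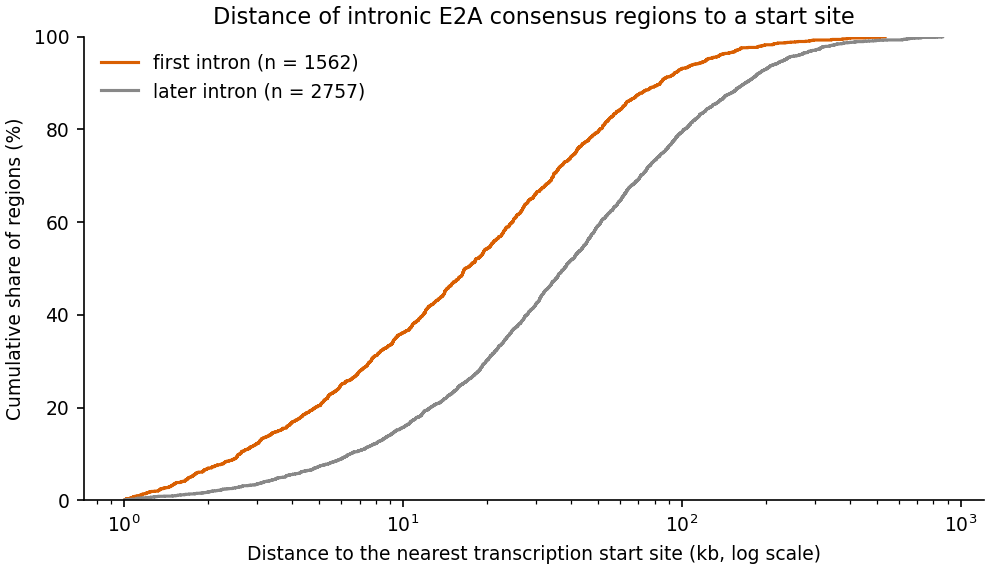
Distance to the nearest annotated start (horizontal axis, kb, log scale) against the cumulative share of first-intron and later-intron regions (vertical axis, percent). First-intron regions have a median of 16781.5 bp and later-intron regions one of 37985 bp, an order that the intron labels themselves favour.

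Knockout shares and enrichment varied little with distance. Over 7 distance bins from 1 to 2 kb up to beyond 100 kb, E12KO had a peak at 96.2 to 100% and E47KO at 92.2 to 96.7%, and median fold stayed between 7.69 and 8.25. All 109 regions beyond 100 kb had an E12KO peak and 104 an E47KO peak. Wt replicate 1 had 48.1% of those at 1 to 2 kb and 36.7% of those beyond 100 kb. Among regions whose nearest gene was the host, the 3 farthest from the nearest start were in genes of neuronal adhesion. Pcdh9, a protocadherin, held regions 537086 and 471030 bp from its nearest start, and Cadm2, a synaptic cell adhesion molecule, held one at 376864 bp. The 537086 bp region of Pcdh9 was 419 bp wide in E12KO, 430 bp in E47KO, and 370 and 397 bp in wt replicates 2 and 3, and wt replicate 1 had none there.

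The nearest start was the host's own for 1389 regions (88.9%). Of these, 1133 lay downstream of it, and 256 lay upstream of an internal start of the same gene. Another gene was nearest for 89, and 84 sat in transcripts without a gene number. Strong examples of a neighbour being nearest were a 30.3-fold region in Tnk2, a kinase that binds Cdc42, whose nearest start is that of Tnk2os, its antisense neighbour, and a 30.7-fold region in Mtss1, a membrane-bending protein, 41573 bp from Ndufb9, a subunit of respiratory complex I. A 17.4-fold region in a transcript without a gene number lay 2833 bp upstream of Tmc5, of the transmembrane channel-like family. These 3 regions had a peak in all 5 libraries, at widths of 673 to 2841 bp.

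A microRNA gene was nearest for 17 regions, and 16 of these had a peak in both knockouts. The strongest pair lay in 1 transcript 52328 and 50461 bp upstream of Mirlet7c-2, a gene of the let-7 family that restrains progenitor growth. The farther one, at 25.5-fold, was 1537 bp wide in E12KO, 1459 bp in E47KO, and 896, 1146 and 1456 bp in wt replicates 1, 2 and 3. The nearer one, at 13.5-fold, had peaks of 692 bp in E12KO and 844 bp in E47KO but none in wt replicate 2. A 7.42-fold region 27253 bp upstream of Mir181a-1 was called in all 5 libraries at 240 to 443 bp. The exception was an 11.4-fold region in Gpc1, a glypican that modulates growth factor signalling, 1414 bp from Mir149, which had no peak in E12KO, E47KO or wt replicate 2.

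The regions fell in 960 host genes, 939 of them protein-coding, which is 4.29% of the 21900 protein-coding genes in the gene table. A single region was found in 654 hosts, and 306 hosts held 2 or more, together 824 regions (52.8%). Neighbouring regions in 1 intron were a median of 9881 bp apart, and 145 of 481 such pairs were within 5 kb. A promoter region was also present in 285 hosts (29.7%), against 26.5% of the hosts of later-intron regions and 11.5% of all protein-coding genes. In 481 hosts the first intron was the only class of the 3 with a region.

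Nfia held the most, with 10 regions over 144.6 kb, their peak midpoints 25704 to 169645 bp from its start. All 10 had a peak in E12KO and in wt replicate 2, 8 had one in E47KO and 4 in wt replicate 1, where fold ran from 5.71 to 10.8. For 7 of the 10 the nearest start was that of E130114P18Rik. The widest, chr4:97314079-97316760, was 2775 bp in E12KO, 2617 bp in E47KO and 2682 bp in wt replicate 3. It overlapped several peaks in each of wt replicates 1 and 2, of which 1 each was 466 and 1252 bp wide. One of the pair lacking E47KO, chr4:97274168-97274508, lay 189 bp from an E47KO peak and shared its E12KO and wt replicate 2 peaks with the neighbouring region, so it is not independent of it. The other, chr4:97417771-97418787, was 1037 bp wide in E12KO and 207 and 1017 bp in wt replicates 2 and 3, and lay 2230 bp from an E47KO peak. The string of Nfia regions was thus shared by both knockouts apart from that last one and the edge of another.

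Ntm, an IgLON adhesion protein of neurons, held 9 regions over 610 kb. They were labelled to first introns of different transcripts, some with 6 introns and some with 7. E12KO had 8, E47KO 9, and wt replicates 1 and 2 had 6 and 9. The strongest, chr9:29580581-29581476 at 16.3-fold, was 1070 bp in E12KO, 1105 bp in E47KO, and 584, 445 and 896 bp in wt replicates 1, 2 and 3. The region without E12KO, chr9:29125343-29125547, was 510 bp in E47KO and 267 and 205 bp in wt replicates 2 and 3, with no E12KO peak for 93626 bp. At 205 bp, no first-intron region was narrower in wt replicate 3.

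All 8 regions of Sema5b, over 50.4 kb, were also called in wt replicate 1. E12KO had 7 and E47KO 8. Fold ran from 4.71 to 32.0, the highest at chr16:35603581-35604352, which was 800 bp in E12KO, 931 bp in E47KO, and 608, 515 and 772 bp in wt replicates 1, 2 and 3. The next, at 23.8-fold, was 1483 bp in E12KO, 960 bp in E47KO, and 766, 835 and 967 bp in wt replicates 1, 2 and 3. Only 1 of the 8 had a lower fold than the region lacking E12KO, given above.

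The other 8 hosts with most regions held 6 each, and E12KO had all 6 in every one of them. E47KO had all 6 in 7 of the 8 and 5 in Gab1, an adaptor of receptor tyrosine kinases. Cuedc1, named for its ubiquitin-binding CUE domain, held its 6 within 40.7 kb at up to 16.3-fold. Dpp6, an auxiliary subunit of Kv4 potassium channels, spread 6 over 370 kb, and Cacna1c, the pore of an L-type calcium channel, 6 over 292 kb. Those of Cacna1c were labelled to first introns of different transcripts, some with 45 introns and some with 46. Of the Cacna1c and Dpp6 regions, 2 of 6 each were called in wt replicate 1, at 4.60 and 6.28-fold and at 7.21 and 14.9-fold. The maps of Nfia, Ntm and Sema5b show the same positions recurring in both knockouts and the wt lists.

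**Figure D5:**
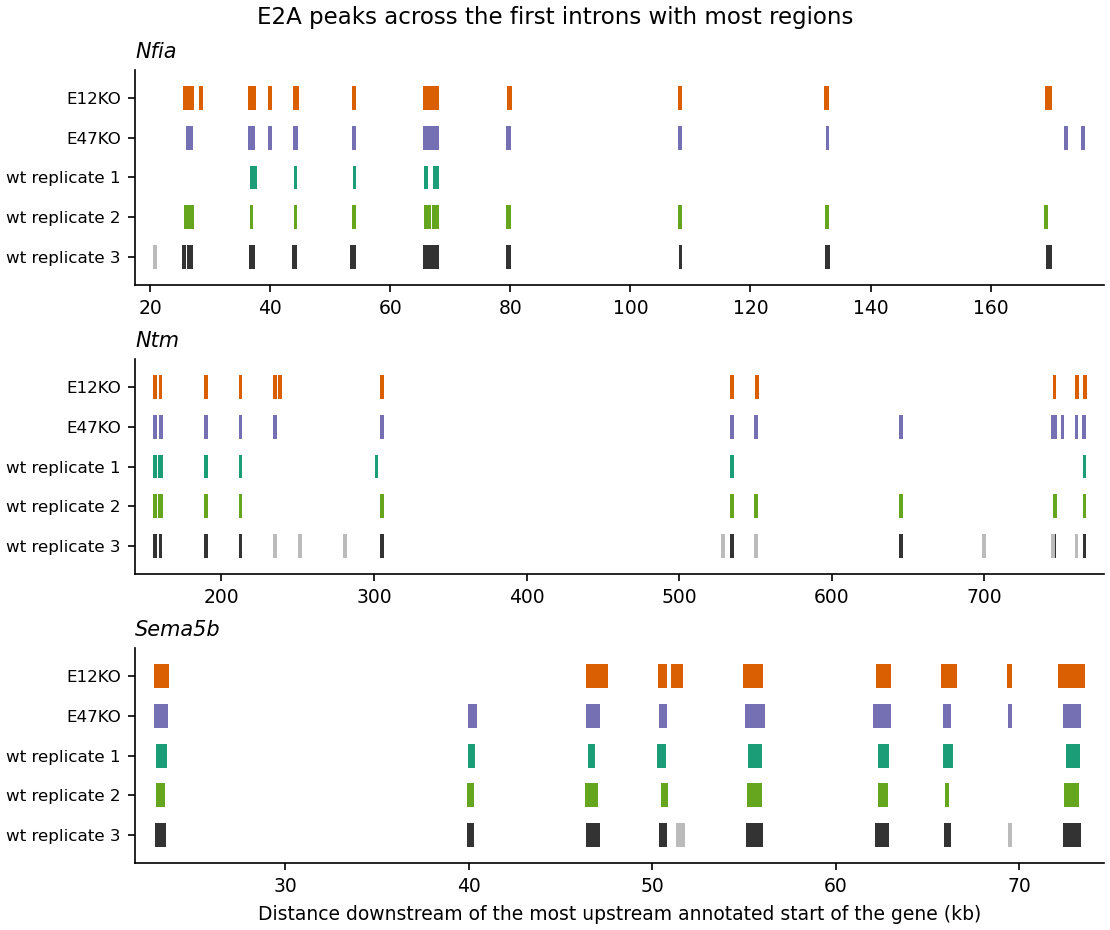
Peaks of each library (rows, E12KO and E47KO above the wt replicates) along the first introns of Nfia, Ntm and Sema5b (horizontal axis, kb downstream of the gene's most upstream annotated start). Wt replicate 3 peaks in grey are not among the first-intron consensus regions, and narrow peaks are widened to be visible. The Ntm regions lie in first introns of different transcripts. All 10 Nfia members have an E12KO peak and 8 an E47KO peak.

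Gene lists relevant to these cells were read against the 4.29% of protein-coding genes that host a first-intron region, as counts only. First-intron length, which differs between genes, was not taken into account, and its part in the counts was not tested. The lists were chosen with earlier results of these data known, so their counts are a description. Among signalling pathways, 4 of 26 Notch genes hosted 10 regions. Maml3, a coactivator of the Notch intracellular domain, had a 33.1-fold region 2533 bp from its start that was 517 bp in E47KO, 809 bp in wt replicate 1 and 388 bp in wt replicate 3. It had no peak in E12KO or wt replicate 2, and the nearest E12KO peak lay 2306 bp away. Mfng, a glycosyltransferase that tunes Notch ligand choice, had an 11.7-fold region, and Notch2, a receptor, a 7.99-fold one, both called in all 5 libraries. Maml2, a coactivator too, also hosted a region.

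Of 27 BMP and TGF-β genes, 6 hosted 11 regions, of which 10 had a peak in E12KO and 10 in E47KO. The ligand gene Bmp7 had an 18.4-fold region that was 462 bp in E12KO, 524 bp in E47KO, and 576, 503 and 722 bp in wt replicates 1, 2 and 3. Ski, a repressor of Smad signalling, had one of 5.28-fold in all 5 libraries. Bmpr1b, a BMP receptor, had its region of 6.03-fold at chr3:141665214-141665613 in wt replicates 1 and 3 only, with the nearest E12KO peak 17401 bp away. The Bmp7 and Ski regions thus had a peak in all 5 libraries, while the Bmpr1b region lacked wt replicate 2 as well as both knockouts. The other hosts of this list were Tgfb2, Zeb1 and Zeb2.

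Of 14 Sonic hedgehog genes, 3 hosted 4 regions, all with a peak in both knockouts. Gli2, the main activating transcription factor of the pathway, had a 15.5-fold region 3046 bp from its start that was 895 bp in E12KO, 769 bp in E47KO, and 641, 595 and 829 bp in wt replicates 1, 2 and 3. Boc, a coreceptor, and Hhip, which sequesters the ligand, had regions called in every library but wt replicate 1. Of 26 Wnt genes, 3 hosted 4 regions, in Ror1, a receptor for Wnt5a (17.4-fold), Daam1, a formin of the planar polarity branch, and Wnt7b, a ligand. Of 21 FGF and EGF genes, 2 did. Egfr, the receptor for the EGF in the medium, had a 28.6-fold region that was 1207 bp in E12KO, 1234 bp in E47KO, and 1330, 1012 and 1196 bp in wt replicates 1, 2 and 3. Spry4, a feedback inhibitor of the pathway, had a 6.53-fold region absent only from wt replicate 2.

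Neural differentiation lists gave mixed counts. Of 31 axon guidance genes, 10 hosted 15 regions, 13 of them in E12KO and 14 in E47KO. Plxna2, a semaphorin receptor, led with 20.7-fold, and Slit1, a repellent, and Sema6a had 7.83 and 6.80-fold, all called in all 5 libraries. Of 25 neuronal adhesion genes, 10 hosted 26 regions, with 25 in each knockout. Besides Ntm, Nfasc, which organises axon initial segments, had 7.76-fold, and Dscam, which keeps neurites of a cell apart, had 6.76-fold in a region absent from wt replicate 2. The lists of astrocyte genes (3 of 15, the nuclear factor I genes Nfia, Nfix and Nfib), projection neuron genes (4 of 24, among them Foxp1 at 9.71-fold and Elavl4 at 9.07-fold) and oligodendrocyte genes (2 of 14) followed. In the last, Zfp488, a repressor that promotes oligodendrocyte formation, had 34.5-fold, and Cspg4, the NG2 proteoglycan, had 16.9-fold, both called in all 5 libraries. The interneuron list had Sox6 alone, 1 of 20.

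Chromatin regulators hosted regions in 7 of 28 genes, with 13 regions, 13 in E12KO and 10 in E47KO. Arid1a, a subunit of the SWI/SNF remodelling complex, had a 5.12-fold region in all 5 libraries. Dnmt3a, a de novo DNA methyltransferase, had a region at chr12:3833924-3834996 that was 1073 bp in wt replicate 3. A 607 bp peak of wt replicate 1, at 7.83-fold, and a 567 bp peak of E12KO overlapped different parts of it and not each other. Neither E47KO nor wt replicate 2 had a peak there, so wt libraries differed at Dnmt3a as the knockouts did. Of 22 cell cycle drivers, 2 hosted 3 regions. E2f2, an E2F factor, had 1 of 7.42-fold at chr4:135733183-135734200 that was 1018 bp wide in wt replicate 3 but absent from E12KO, E47KO and wt replicate 2. Ccnd3, a D-type cyclin, had a region in every library but wt replicate 1.

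No first-intron region fell in the 7 E protein and Id genes, the 15 proneural factors, the 20 neural stem cell markers or the 17 CDK inhibitor and cell cycle exit genes. With 4.29% of protein-coding genes hosting a region, lists this short may hold none, so the zeros are a description only. Promoter regions were present at 4, 2, 12 and 7 of their genes, against 11.5% of all protein-coding genes. Lists of other lineages also held some hosts. The 13 microglia markers had no first-intron region, 1 of 12 endothelial markers had one (Tek, the angiopoietin receptor, 9.70-fold), and so did 1 of 14 mural and fibroblast markers (Cspg4, which is on the oligodendrocyte list too). For skeletal muscle it was 1 of 16 (Mef2d), and for housekeeping genes 1 of 18 (Polr2a, the large subunit of RNA polymerase II). Of 20 lymphoid E2A targets, 3 hosted 5 regions, all with a peak in both knockouts, in Bach2, a repressor of plasma cell fate (9.71-fold), Ets1, a lymphoid transcription factor (7.12-fold), and Blk, a B cell kinase.

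The rule's threshold separated regions by whether wt lists overlapped at all. Just inside were regions in Ctnna2 and Nhs with 97 and 113 bp of overlap, and just outside were peaks in Oxr1 and Prkcq, 140 and 179 bp short of a wt peak. The 1467 first-intron peaks of wt replicate 3 outside the rule had a median width of 385 bp, and 69.5% had an E12KO peak and 58.9% an E47KO peak. Even among peaks that no other wt list called, the majority were thus called in each knockout.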

How the data were processed

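The submitters' processing notes name the aligner BWA (0.7.13), Picard (1.119), the peak caller MACS2 (2.1.0) and the mm9 build, without settings. The authors deposited an annotated peak list for each of 5 libraries, not for pooled samples. Only that of wt replicate 1 carries scores per peak, per the file headers: a pileup signal, −log10 p, −log10 q and a fold enrichment ratio. These were used only to rank and describe peaks. The false discovery rate label of wt replicate 1 differs from that of the other lists, so list lengths and missing peaks may reflect different thresholds.

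Peaks shared at least 1 bp. Some members overlapped more than 1 peak of a library: 6 in E12KO, 9 in E47KO, 10 in wt replicate 1 and 15 in wt replicate 2. For these, the width of 1 peak is given. Shares carry 95% Wilson intervals, which cover counting error only, and a share of 0 was given the limit of 3 counts. No test between genotypes was possible with 1 library per knockout. Overlaps were tested on simulated data. Gene class came from a RefSeq table (GRCm38.p6), which held 958 of the 960 host genes, and sequences from RefSeq on the same build. Python 3.11.15, pandas 2.3.3, numpy 2.4.6 and scipy 1.17.1 were used.

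The members and the 23 gene lists were chosen with earlier results of these data known. Named were the 10 highest regions by −log10 q; of those in all 3 wt lists, the 5 highest missing in 1 or both knockouts; the 6 hosts with most regions; the 3 farthest from the nearest start among those whose nearest gene is the host; the 5 highest with another nearest gene; and up to 3 hosts per gene list. The 8 hosts tied at 6 regions were summarised. A gene that the rule names is not reported here. Alternatives were a stricter overlap, all 3 wt lists, each wt list left out, a −log10 q minimum of 10, a width minimum of 300 bp, the host as nearest gene and a distance minimum of 5 kb.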

Additional observations from a re-analysis of the deposited data

How the results depend on the processing

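Leaving out each wt list in turn gave 590 to 1411 regions in 444 to 892 host genes, with an E12KO peak at 96.5 to 99.3%, an E47KO peak at 93.5 to 98.8%, neither at 0.169 to 2.81%, and a median distance of 14782 to 17540 bp. Without wt replicate 2 there were 713 regions in 518 hosts, and without wt replicate 3 there were 590 in 444. The share without either knockout peak was 0.638% without wt replicate 1 and 2.81% without wt replicate 2. With all 3 wt lists required, 562 regions in 428 hosts remained, with E12KO at 99.5%, E47KO at 99.1% and 0% without either. A −log10 q of at least 10 left 514 regions in 399 hosts at a median distance of 15518 bp; the cause was not tested. A minimum of 5 kb, which removes the near regions, gave a median distance of 24863 bp. The stricter overlap, the width minimum and the host as nearest gene moved no value beyond its counting interval or by over 1.5 times. No paired analysis was possible because each knockout has 1 library and no test between genotypes was made. Depth is unknown, so a missing peak is not shown to be an unbound region.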
